A study of Mus musculus with 6 samples.

Results

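The postsynaptic density is the protein mesh under the membrane of an excitatory synapse, and its scaffold genes were examined here in the ventral dentate gyrus, the entry field of the ventral hippocampus. The 10 members were taken by symbol from the Dlg, Dlgap and Shank families together with Ppp1r9b, out of 24062 gene symbols in the count tables. All 10 passed the filter on low counts, as did 14058 symbols in all. Total RNA came from male mice of the C57BL/6 strain, 3 libraries from mice that were not stressed (control) and 3 from mice given chronic restraint, in which animals are confined again and again (stress). The labels name no transgene or drug in either group, and they do not give the animals' age, the length of the restraint, or whether a library holds 1 animal or several. The p-values therefore measure the spread between these libraries, which the labels call biological replicates.

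Excitatory synapses are built in layers. Dlg proteins lie just under the membrane and hold glutamate receptors and adhesion proteins by their PDZ domains. Dlgap proteins bind the guanylate kinase-like domain of the Dlg proteins and pass the chain on to Shank proteins, which lie deeper and connect through Homer and cortactin to metabotropic receptors and to actin. Spinophilin, the product of Ppp1r9b, binds actin and brings protein phosphatase 1 into the spine, the small protrusion of a dendrite that carries the synapse. Granule neurons of the dentate gyrus receive most of their excitatory input on such spines.

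Dlg1 was the member with the smallest p, with a lower mean in stress, and Dlgap3 and Ppp1r9b followed, both with higher means in stress. The start site windows of these 3 genes are printed to show their base composition. Each window runs from 250 bases before to 50 bases after an annotated start in RefSeq on GRCm38.p6, on the plus strand, and capitals mark each CG dinucleotide. RefSeq windows were found for 7 of the 10 members. Dlg1 has 4 windows, and the first listed, chr16:31663685-31663984, is shown. The Dlgap3 window is chr4:127172630-127172929 and the Ppp1r9b window chr11:94990962-94991261.
Dlg1: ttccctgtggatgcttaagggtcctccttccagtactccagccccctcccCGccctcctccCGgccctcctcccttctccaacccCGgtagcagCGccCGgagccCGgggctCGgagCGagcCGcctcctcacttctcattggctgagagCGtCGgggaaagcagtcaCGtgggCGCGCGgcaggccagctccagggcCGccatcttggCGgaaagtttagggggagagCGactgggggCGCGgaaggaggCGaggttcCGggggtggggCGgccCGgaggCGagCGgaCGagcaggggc
Dlgap3: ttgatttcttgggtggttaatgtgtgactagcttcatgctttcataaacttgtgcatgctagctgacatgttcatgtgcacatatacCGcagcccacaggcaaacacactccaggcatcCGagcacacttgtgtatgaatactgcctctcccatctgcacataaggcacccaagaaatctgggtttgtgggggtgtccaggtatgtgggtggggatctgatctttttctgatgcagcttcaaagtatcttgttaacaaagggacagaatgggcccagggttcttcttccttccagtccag
Ppp1r9b: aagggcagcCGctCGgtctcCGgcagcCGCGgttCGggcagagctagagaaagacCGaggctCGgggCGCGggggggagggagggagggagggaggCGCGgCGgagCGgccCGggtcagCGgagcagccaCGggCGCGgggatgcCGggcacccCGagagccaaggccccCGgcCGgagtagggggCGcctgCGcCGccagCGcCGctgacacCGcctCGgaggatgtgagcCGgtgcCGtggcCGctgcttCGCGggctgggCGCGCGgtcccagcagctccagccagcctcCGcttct
The Dlg1 window holds 27 CG dinucleotides, a number reached by 15.5% of the 32851 RefSeq windows of the same length. The other Dlg1 windows hold 10, 4 and 4. The Ppp1r9b window holds 39, reached by 4.45% of windows, and the Dlgap3 window only 2, reached by 85.9%. The Dlgap3 window lies inside the span that GENCODE gives the gene, which starts at 127169204, so the window at that start was not examined. The printed Dlg1 window likewise lies inside its GENCODE span, which starts at 31663443. The Dlg1 window that covers that start, chr16:31663193-31663492, is the one with 10 CG dinucleotides.

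Library depth and tissue content bear on all of these values. The libraries held from 8305753 to 10107953 gene counts, and members had between 646 and 9388 counts each, so that counting error alone was 1.03% to 3.93% of a value. Levels are given in CPM, counts put on a common library total with the TMM factors of edgeR. Stress replicate 1 stood apart by markers of choroid plexus and of striatum, tissues other than the dentate gyrus. The 10 choroid plexus markers, led by Ttr, summed to 4838 CPM in it against 25.9 to 34.1 CPM in the other 5 libraries, and all 10 were highest in it. The 13 striatal markers measured summed to 1057 CPM there against 226 to 244 CPM, again with all 13 highest in it, Penk at 169 CPM against 6.81 to 10.8 CPM among them. The 10 dentate granule neuron markers summed to 693 CPM there against 972 to 1291 CPM. None of the marker genes of these 3 lists was at 0 in all libraries. The 8 ependymal markers summed to 99.2 CPM in stress replicate 1 against 10.3 to 13.5 CPM elsewhere, with all 8 highest in it. The 10 oligodendrocyte markers summed to 4916 CPM there against 2085 to 3239 CPM, with 9 highest in it. In bulk tissue, fewer cells of a type and less RNA per cell cannot be told apart.

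No member passed an adjusted p of 0.05 by edgeR's quasi-likelihood test, DESeq2 or limma-voom. Of all tested genes edgeR called 0.0285%, which is 4 genes, all lower in stress, DESeq2 called 0.761% and limma-voom 0.00711%. At an unadjusted p under 0.05 edgeR gave 3 members with higher and 1 with lower means in stress, where 3.86% and 4.85% of all tested genes had such a p. 4 of the 10 members had groups that did not overlap, Dlgap2, Dlgap3 and Ppp1r9b with each stress library above each control and Dlg1 with each below. Among all tested genes this held for 6.76% upward and 7.84% downward. Highly expressed genes overlap somewhat less often. Among the 3035 tested genes with an average level at or above the lowest member, 17.8% did not overlap in either direction, against 14.6% of all. The median log2 fold change of the members, stress over control, was 0.092, beside 0.0038 for all tested genes, with 8 positive and 2 negative, where 51% of all tested genes were positive. The number without overlap depended on single libraries. It was 8 without control replicate 1, beside 24.3% of all tested genes, and 7 without stress replicate 1, beside 29.2%.

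**Figure D1:**
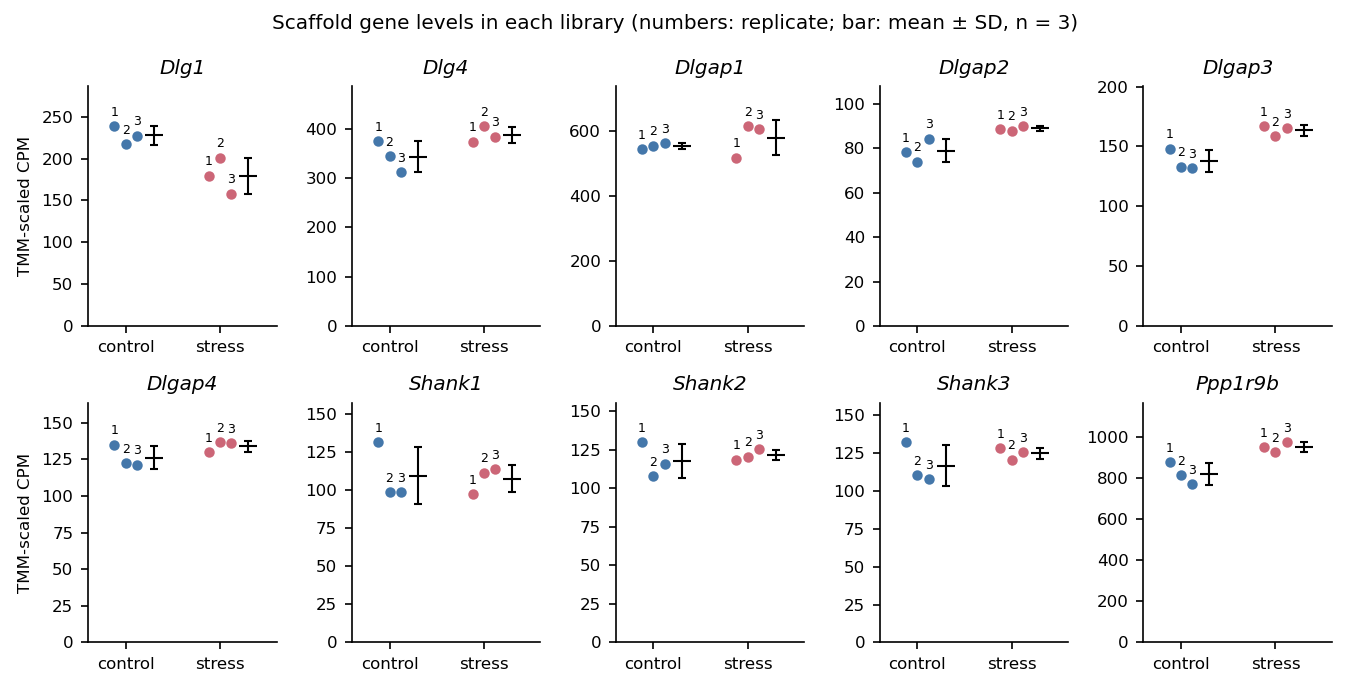
TMM-scaled CPM of each scaffold gene in 3 control (blue) and 3 stress (red) libraries, with replicate numbers over the points and the mean ± SD beside them, each vertical axis starting at 0. Dlg1 lies lower in each stress library than in any control, Dlgap2, Dlgap3 and Ppp1r9b lie higher, and the groups overlap for the other 6 genes.

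Dlg1 and Dlg4 encode membrane-associated guanylate kinases, SAP97 and PSD-95. SAP97 binds the AMPA receptor subunit GluA1 and takes part in its trafficking, and it is also made outside synapses and outside neurons. PSD-95 is the most studied scaffold of the mature excitatory synapse and holds NMDA receptors and the auxiliary subunits of AMPA receptors in place. Dlg1 is a protein-coding gene on chromosome 16 from 31663443 to 31875129 of GRCm38, and Dlg4 lies on chromosome 11 from 70016942 to 70047522.

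Dlg1 was measured at 239, 217 and 227 CPM in control replicates 1, 2 and 3 and at 179, 201 and 158 CPM in stress replicates 1, 2 and 3. The highest stress library lay below the lowest control, and the stress libraries differed more among themselves than the controls did. The means were 228 ± 11.0 and 180 ± 21.6 CPM (SD, n = 3). On the log2 scale stress differed from control by -0.34 (SE 0.09), and edgeR's adjusted p was 0.345. A change of at least this size was fitted for 11.8% of all tested genes. The 95% interval of the limma-voom fit ran from -0.56 to -0.14. The adjusted p ran from 0.145, with DESeq2, to 0.830 over the 13 alternative settings, and the log2 fold change from -0.43 to -0.25. Without stress replicate 1, in which the choroid plexus and striatal markers were high, it was -0.34, with an adjusted p of 0.170, and the value was as large without that library.

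Dlg4 was measured at 375, 344 and 313 CPM in the controls and at 374, 406 and 384 CPM in stress. Control replicate 1 lay within the stress range and the other controls below it. The means were 344 ± 31.0 and 388 ± 16.5 CPM, a log2 fold change of 0.17 (SE 0.08) with an adjusted p of 0.611 by edgeR. Without control replicate 3 the fitted value was 0.12. Control replicate 1 and stress replicate 1 were so close that under relative log expression scaling and DESeq2's size factors the groups did not overlap, which brought the members without overlap to 5.

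Reads of the 4 closely related genes Dlg1, Dlg2, Dlg3 and Dlg4 can be compared within a library with no scaling between libraries. Dlg1 took 17.2%, 16.5% and 17.7% of them in the controls and 13.3%, 14.6% and 12.1% in stress, and Dlg4 took 27.0%, 26.1% and 24.3% in the controls and 27.8%, 29.5% and 29.4% in stress. Both shares were separate between the groups, in opposite directions. The Dlg3 share was separate too, upward like that of Dlg4. It was 15.8%, 16.2% and 16.5% in the controls and 16.7%, 17.0% and 17.5% in stress. Dlg2, for a relative of PSD-95 that is also postsynaptic, held between 38.9% and 42.2% in all 6 libraries with overlap. The number of Dlg4 reads per Dlg1 read was 1.57, 1.59 and 1.38 in the controls and 2.08, 2.02 and 2.43 in stress. It averaged 1.51 ± 0.116 and 2.18 ± 0.222 (SD, n = 3), with an exact two-sided permutation p of 0.10, the smallest that 3 against 3 allows. Of the 14 within-family shares and ratios computed, 4 reached this p, and its Benjamini-Hochberg value over the 14 was 0.35. The shares of a family add up to a fixed total, so they are not independent, and a ratio shows unequal change without telling which gene changed.

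**Figure D2:**
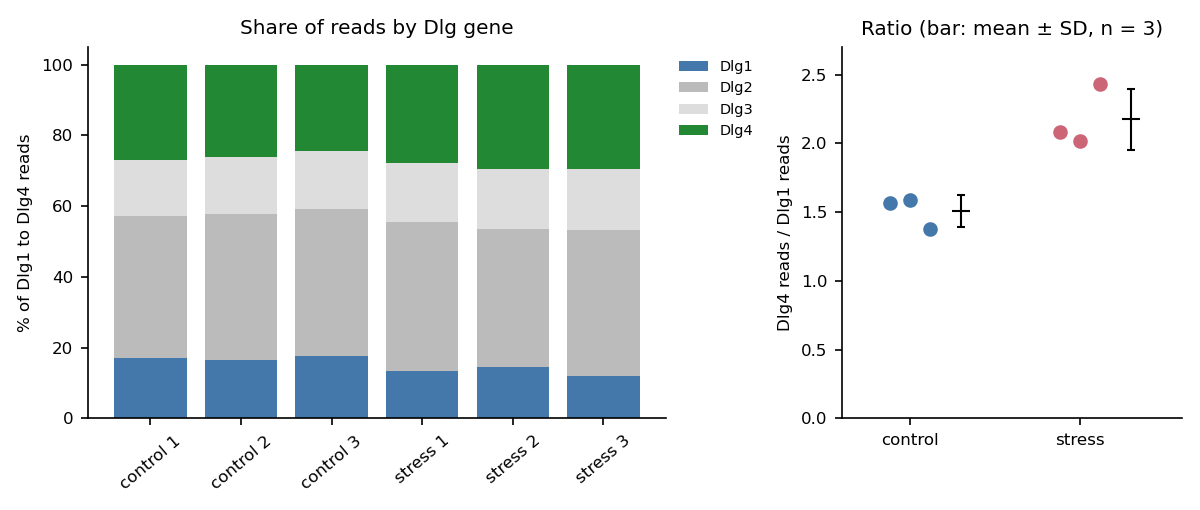
Left, the percentage of the summed Dlg1, Dlg2, Dlg3 and Dlg4 reads taken by each gene, 1 bar per library; right, Dlg4 reads per Dlg1 read in each library with mean ± SD (n = 3). The ratio lies between 1.38 and 1.59 in controls and between 2.02 and 2.43 in stress.

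The Dlgap genes encode the linkers between the Dlg and the Shank layer, also called SAPAP or GKAP proteins. Dlgap3 is best known from the striatum, where its loss in mice causes compulsive grooming. It lies on chromosome 4 from 127169204 to 127237022 and was measured at 148, 133 and 132 CPM in the controls and at 167, 159 and 165 CPM in stress. The lowest stress library lay above the highest control, and the spread was narrower in stress. The means were 138 ± 8.97 and 164 ± 4.48 CPM, a log2 fold change of 0.25 (SE 0.07) with an adjusted p of 0.355 by edgeR. The adjusted p ran from 0.233 to 0.835 over the alternatives, and a change of at least this size was fitted for 19.2% of all tested genes. With stress replicate 1 left out, the difference was 0.23 on the log2 scale, with an adjusted p of 0.233.

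Dlgap2, on chromosome 8 from 14095865 to 14847680, was the least abundant member, at 78.2, 74.0 and 84.4 CPM in the controls and 88.7, 88.0 and 90.1 CPM in stress. The stress libraries lay close together, all above the controls. With a log2 fold change of 0.17 (SE 0.07), edgeR's adjusted p was 0.549, and the limma-voom interval ran from 0.010 to 0.34. Dlgap1, on chromosome 17 from 69969073 to 70821413, was at 545, 555 and 562 CPM in the controls and at 518, 616 and 606 CPM in stress. Stress replicate 1 lay below the controls and the other stress libraries above them, and the log2 fold change of 0.067 (SE 0.08) was 0.14 without that library, 0.023 without stress replicate 2 and 0.039 without stress replicate 3. Dlgap4, on chromosome 2 from 156613705 to 156764363, was at 135, 122 and 121 CPM in the controls and at 130, 136 and 136 CPM in stress, with a log2 fold change of 0.087 (SE 0.07). Control replicate 1 again lay among the stress libraries, and without it the log2 fold change was 0.14. Within the 4 linkers, Dlgap1 took 57.3% to 62.7% of the reads and Dlgap3 14.7% to 18.5%, highest in stress replicate 1, and the groups overlapped for each linker's share.

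The Shank genes encode large proteins that bind the Dlgap linkers through a PDZ domain and multimerise through a SAM domain, and they are the deepest layer of the scaffold. Shank3 is known in human genetics for its part in Phelan-McDermid syndrome. Shank1, on chromosome 7 from 44310253 to 44360572, was at 131, 98.6 and 98.4 CPM in the controls and at 97.4, 111 and 114 CPM in stress. Shank2, on chromosome 7 from 144001928 to 144424494, was at 130, 108 and 116 CPM in the controls and at 119, 121 and 125 CPM in stress. Shank3, on chromosome 15 from 89499623 to 89560261, was at 132, 110 and 108 CPM in the controls and at 128, 120 and 125 CPM in stress. For all 3 genes control replicate 1 was the highest of the 6 libraries, and the groups overlapped. The log2 fold changes were -0.024 (SE 0.12) for Shank1, 0.045 (SE 0.08) for Shank2 and 0.096 (SE 0.09) for Shank3, with adjusted p-values of 0.973, 0.920 and 0.823 by edgeR. The limma-voom 95% intervals ran from -0.29 to 0.26, from -0.14 to 0.23 and from -0.098 to 0.30, so changes within these bounds could not be told from no change. The sign for Shank1 turned without control replicate 1, to 0.13, and without stress replicate 1, to 0.044, and that for Shank2 turned without control replicate 2, to -0.0088. Each of the 3 genes took 28.3% to 37.2% of the summed Shank reads in each library.

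Ppp1r9b, on chromosome 11 from 94991035 to 95006899, was the most abundant member. It was measured at 880, 816 and 773 CPM in the controls and at 952, 927 and 975 CPM in stress, with no overlap between the groups. The means were 823 ± 54.0 and 952 ± 23.9 CPM, a log2 fold change of 0.21 (SE 0.07) with an adjusted p of 0.499 by edgeR and a range from 0.266 to 0.835 over the alternatives. It was also 0.21 on the log2 scale with stress replicate 1 left out. Its relative Ppp1r9a, for neurabin, which likewise binds actin and protein phosphatase 1, was at 495, 491 and 475 CPM in the controls and at 559, 499.8 and 524 CPM in stress. Each stress library lay above each control for Ppp1r9a too, by a narrow margin, and its log2 fold change of 0.12 (SE 0.07) had an adjusted p of 0.717. Ppp1r9b reads per Ppp1r9a read were 1.69 ± 0.0786 in controls and 1.81 ± 0.0904 in stress (SD, n = 3), with an exact two-sided permutation p of 0.20.

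**Figure D3:**
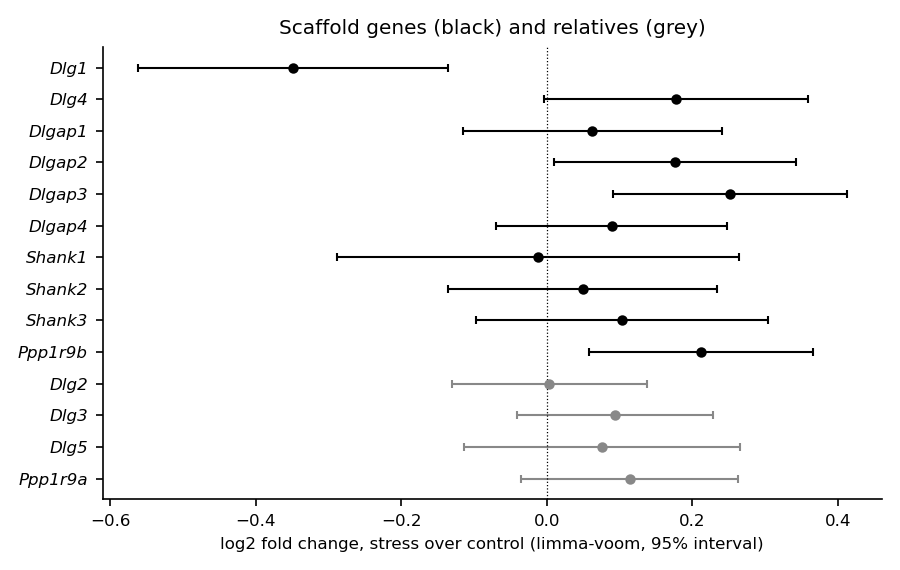
Log2 fold change of stress over control with its 95% interval from the limma-voom fit, for the 10 scaffold genes (black) and 4 tested relatives (grey). The interval of Dlg1, from -0.56 to -0.14, lies below 0, those of Dlgap2, Dlgap3 and Ppp1r9b lie above it, and no adjusted p passed 0.05.

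Control replicate 1 had the highest level among the controls for 8 of the 10 members, all but Dlgap1 and Dlgap2, where 36.8% of all tested genes had their highest control there. On a log2 scale relative to the control mean, the median of the members was 0.10, -0.057 and -0.057 in control replicates 1, 2 and 3 and 0.083, 0.13 and 0.12 in stress replicates 1, 2 and 3. By this median control replicate 1 lay within the stress range. 8 of the 10 members varied more, as SD over mean, among controls than among stress libraries, against 39.5% of all tested genes, and the exceptions were Dlg1 and Dlgap1. Reads of all 10 members together made up 0.278%, 0.260% and 0.255% of gene counts in the controls and 0.270%, 0.289% and 0.288% in stress, and stress replicate 1 lay below control replicate 1.

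Levels of different genes were compared per kilobase of merged exon in GENCODE M21. Merged exons include those of rare transcripts, which lowers this level for genes with many transcripts. Per kilobase, Ppp1r9b was at 162 ± 10.6 CPM in controls (SD, n = 3), above all other members in each library. Dlgap1 at 31.0 ± 0.486, Dlgap3 at 30.5 ± 1.98 and Dlg4 at 25.9 ± 2.34 CPM per kilobase came next, and the first 2 of these did not differ beyond their spread. Dlg1 followed at 21.2 ± 1.02, then Dlgap4 at 14.9 ± 0.892, Dlgap2 at 12.8 ± 0.848 and Shank3 at 12.7 ± 1.44, of which the last 2 did not differ beyond their spread. Shank2 at 10.9 ± 1.02 and Shank1 at 10.4 ± 1.79 CPM per kilobase were lowest and likewise not separated. In stress Dlg1 was at 16.7 ± 2.01 and Dlgap4 at 15.9 ± 0.445 CPM per kilobase, within their spread, while the linker Dlgap3 was at 36.2 ± 0.991.

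**Figure D4:**
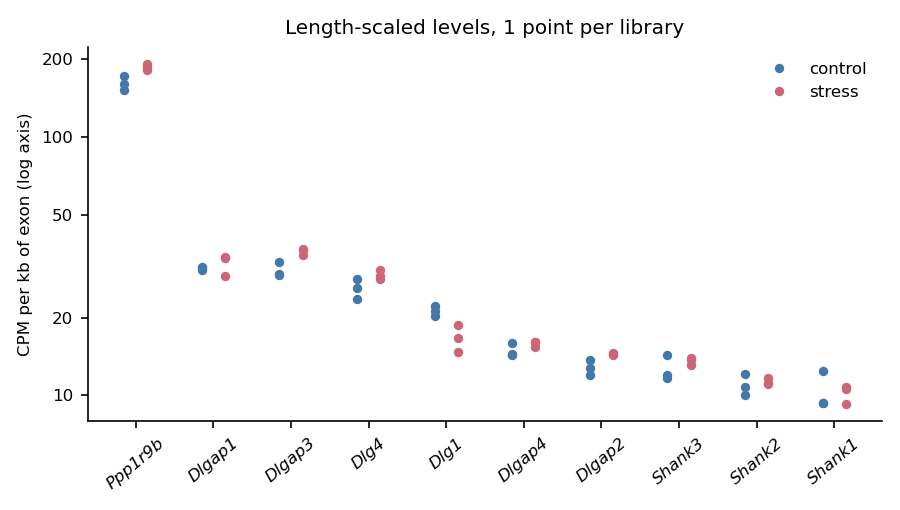
CPM per kilobase of merged exon on a log axis for the 10 scaffold genes, ordered by their control mean, 1 point per control (blue) or stress (red) library. Ppp1r9b lies at 162 ± 10.6 in controls, far above Dlgap1 at 31.0 ± 0.486, and Shank1 and Shank2 have the lowest control means.

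Relatives outside the 10 members did not pass either. The log2 fold change of Dlg2 was 0.0039 (SE 0.06). That of Dlg3, for another synaptic guanylate kinase scaffold, was 0.094 (SE 0.06) with each stress library above each control, at 225 to 234 against 212 to 219 CPM. Dlg5, which works in cell polarity, had 0.073 (SE 0.08). The mitotic gene Dlgap5 had 0, 2 and 1 counts in the controls and 10, 6 and 2 in stress and was too low to test.

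Genes whose products work beside the scaffolds were read from lists, and none of their members passed by edgeR's adjusted p. Of 24 scaffold partners 17 had positive and 7 negative log2 fold changes, with a median of 0.087, where 51% of all tested genes were positive. At an unadjusted p under 0.05 there were 4 positive and 1 negative, beside the 3.86% and 4.85% of all tested genes. At the upper end of this list were Homer3 at 0.81 by edgeR and Tanc1, a scaffold protein, at 0.27 (SE 0.10). The limma-voom fit gave Homer3 0.74 (SE 0.41), with a 95% interval from -0.21 to 1.68. At the lower end were Homer2, which binds Shank and group I metabotropic receptors, at -0.19 (SE 0.08) and the dynein light chain gene Dynll2 at -0.15 (SE 0.18). Homer3 was at 65.3 CPM in stress replicate 1 against 15.2 to 32.1 CPM in the other 5 libraries. Of 17 spine actin regulators 13 were positive and 4 negative, with a median of 0.12 and 4 positive at an unadjusted p under 0.05, beside 3.86% of all tested genes, of which 51% were positive. Actn2, for an actinin of spines, had 0.62 by edgeR, with 30.0 CPM in stress replicate 1 against 8.43 to 13.3 CPM elsewhere. The limma-voom fit gave Actn2 0.44 (SE 0.42), with a 95% interval from -0.52 to 1.41. Actn1 had 0.32 (SE 0.12). Limk1, a kinase that acts on cofilin, had -0.23 (SE 0.10) and Pak1 -0.10 (SE 0.07).

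Of 14 genes that lipidate, phosphorylate or turn over the scaffolds, 10 were positive and 4 negative, with a median of 0.13 and 3 positive at an unadjusted p under 0.05, beside 3.86% of all tested genes, of which 51% were positive. Zdhhc2, for a palmitoyltransferase of PSD-95, had 0.38 (SE 0.15) and was at 36.4, 54.2 and 51.3 CPM in the controls and at 54.5, 62.5 and 68.0 CPM in stress, with no overlap. Plk2, an activity-induced kinase of spines, had 0.30 (SE 0.09), and each stress library, at 270 to 282 CPM, lay above the 196 to 243 CPM of the controls. Ptpn4 had -0.15 (SE 0.07) and Zdhhc17 -0.079 (SE 0.10). Of 8 genes of protein phosphatase 1, the partner of spinophilin, 6 were positive and 2 negative, with a median of 0.059 and 2 positive at an unadjusted p under 0.05, beside the same 3.86%. Ppp1r1b, for the inhibitor DARPP-32 of striatal neurons, had 1.52 by edgeR, with 142 CPM in stress replicate 1 against 19.5 to 23.7 CPM elsewhere. The limma-voom fit gave it 0.94 (SE 0.67), with a 95% interval from -0.59 to 2.47. The inhibitor gene Ppp1r2 had 0.28 (SE 0.10), Ppp1r1a -0.093 (SE 0.11) and the catalytic subunit gene Ppp1cb -0.045 (SE 0.06).

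Of 22 receptor and adhesion genes whose products the scaffolds hold, 14 were positive and 8 negative, with a median of 0.072, where 51% of all tested genes were positive. At an unadjusted p under 0.05 there were 4 positive and 2 negative, beside 3.86% and 4.85% of all tested genes. Gria1, for the AMPA receptor subunit GluA1 that SAP97 binds, was at 1032, 1021 and 914 CPM in the controls and at 1244, 1147 and 1323 CPM in stress, a log2 fold change of 0.32 (SE 0.08) with an adjusted p of 0.306 by edgeR. Dlg1 and Gria1 thus had means on opposite sides, each without overlap between groups. Gria4, for the subunit GluA4, was at 140, 133 and 169 CPM in the controls and at 107, 117 and 105 CPM in stress, a log2 fold change of -0.42 (SE 0.10) with an adjusted p of 0.260. The auxiliary subunit genes Cacng8 and Cacng3, whose products bind PSD-95, had 0.49 (SE 0.13) and -0.37 (SE 0.16).

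The genes with the pattern most like that of Dlg1 over the 6 libraries, by root mean square difference of centred log2 CPM among 10873 candidates, were Ptprd at 0.023, Mapk11 at 0.034 and Slc38a1 at 0.037. Ptprd, for a receptor phosphatase of the presynaptic side, was at 432, 407 and 426 CPM in the controls and at 339, 382 and 299 CPM in stress. It shared with Dlg1 the order of all 6 libraries. For Dlgap3 the nearest were Nhsl1 at 0.019 and the actin-nucleating subunit gene Arpc2 at 0.029. None of the genes named here passed. With so many candidates, near matches can arise over only 6 libraries, and how common they are was not tested.

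Summed markers of some cell types and regions were separate between the groups, and those of others overlapped. The 8 thalamus and habenula markers summed to 338 to 358 CPM in controls and 204 to 246 CPM in stress, and the 9 neocortical and entorhinal markers to 734 to 768 and 499 to 695 CPM. The 10 astrocyte markers summed to 2421 to 2770 CPM in controls and 2165 to 2432 CPM in stress. The astrocyte sums overlapped, while 9 of the 10 markers had negative log2 fold changes and 5 lay lower in each stress library. Among all tested genes 7.84% lay lower in each stress library, and 51% had positive log2 fold changes. Like Dlg1, the thalamic and neocortical sums were lower in each stress library. Of the 7 thalamus and habenula markers tested, 5 lay lower in each stress library, and all 7 had negative log2 fold changes. Of all 8, 3 were highest in stress replicate 1. Of the 9 neocortical and entorhinal markers, 5 lay lower in each stress library, beside the same 7.84%. Their log2 fold changes were negative for 7 and positive for 2. The 8 meningeal fibroblast markers summed to 98.4 to 130 CPM in controls and 94.3 to 144 CPM in stress. Of them 3 lay lower in each stress library, beside the same 7.84%, and 3 had positive and 5 negative log2 fold changes. The 8 CA3 pyramidal markers measured summed to 949 to 1116 CPM in controls and to 1785, 1154 and 1225 CPM in stress replicates 1, 2 and 3. This sum, like Dlgap3 and Ppp1r9b, was higher in each stress library. All 8 of these markers had positive log2 fold changes, and all 8 were highest in stress replicate 1. Only 1 of them lay higher in each stress library by itself, beside 6.76% of all tested genes. The part of these markers in the scaffold values was not tested. The 10 GABAergic interneuron markers summed to 712 to 786 CPM in controls and 729 to 749 CPM in stress, with overlap. Single interneuron markers went both ways, with 6 positive and 4 negative log2 fold changes. Of these 10 markers 2 lay higher and 3 lower in each stress library, beside 6.76% and 7.84% of all tested genes.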

How the data were processed

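RNA of the ventral dentate gyrus was measured in 3 control and 3 stress libraries, from total RNA depleted of ribosomal RNA with a stranded kit. The deposited values are whole-number read counts per gene symbol, not normalized by the authors. FastQC 0.11.3, Trimmomatic 0.33, TopHat2 2.0.9, HTSeq 0.6.1, edgeR 3.12.0, with builds mm10 and GRCm38, are named, per the submitters' processing notes, without role or order. The annotation behind the counts, like the strand setting, is not given in the sources used here. Reads assigned to no gene, 59.5% to 63.1% per library, were left out. Exons of Dlgap1, Dlgap4, Shank1 and Shank3 overlap exons of genes on the opposite strand in GENCODE M21. The genes that overlap Dlgap1 and Shank3 have no counts of their own here. Counts of Dlgap1 and Shank3 could therefore hold reads of those genes if counting ignored strand. The genes that overlap Dlgap4 and Shank1 were counted, so shared reads could instead have been set aside as ambiguous.

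All 14058 genes kept by filterByExpr were fitted in R 4.3.3 with edgeR 4.0.16 (TMM scaling, quasi-likelihood F-test, group as the single term, two-sided, Benjamini-Hochberg over all tested genes). Standard errors and intervals come from limma 3.58.1 (voom), while the log2 fold changes printed beside them come from edgeR unless limma-voom is named. The procedure was tested on simulated data with changes larger than those fitted for the members. That simulation therefore does not tell how often changes of the members' size would be called. Members, lists and tests were chosen with earlier results of these data known. All 10 members are named. Of each list, the 2 genes with the largest and the 2 with the smallest log2 fold change among those whose average log2 CPM was 3 or more are named, with every family relative. For the 2 members with the smallest p, the 3 nearest genes are named, except for a gene that is not reported here. Marker genes are named from the library that stands apart. DESeq2 1.42.0, limma-voom, other scalings and filters, a replicate block and each library left out were alternatives. Positions come from GENCODE M21 on GRCm38, where 94.4% of the 24062 symbols matched 1 gene, the 10 members among them. Counting errors cover counting only.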

Additional observations from a re-analysis of the deposited data

How the results depend on the processing

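No member passed under any of the 13 alternative settings, which were 7 changes of scaling, filter, test or block and 6 omissions of 1 library. Over all tested genes, edgeR's 4 calls became 107 with DESeq2, 1 with limma-voom and 0 with the replicate number as a block. They ranged from 0 to 41 with 1 library left out. The 41 were without stress replicate 1 and 28 without stress replicate 2, and there were 0 without any 1 control or without stress replicate 3. The members' median log2 fold change ranged from 0.073 to 0.15 over the omissions, the highest without control replicate 1, and the number of members without overlap from 4 to 8. The sign turned for Shank1 without control replicate 1 (0.13) and without stress replicate 1 (0.044), and for Shank2 without control replicate 2 (-0.0088). The cause was not tested. Over the omissions Shank1 ran from -0.088 to 0.13 and Shank2 from -0.0088 to 0.12, and Shank3 was at 0.19 without control replicate 1, 0.064 without control replicate 2 and 0.048 without control replicate 3.

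The labels give same-numbered libraries a shared number and name no shared litter, cage or day. The correlations of their deviations from the group means across genes were 0.14, -0.0076 and 0.042. The first was the highest of any control and stress pair, while control replicate 2 correlated best with stress replicate 3. Whether same-numbered libraries shared handling was not tested. The block gave a members' median of 0.095 and called 0 members. No 2 libraries had counts that differed by as little as sampling noise. The 3 libraries a group limit the precision, as the intervals of the Shank genes show.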
